A study of Mus musculus with 6 samples.

Results

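The immediate early genes described here are 9 genes, Fos, Fosb, Junb, Egr1, Npas4, Arc, Nr4a1, Ier2 and Dusp1, each found once among the 32285 genes of the deposited count tables by its gene symbol. They were followed by cell class and by genotype in nuclei of lumbar spinal cord. All mice were C57BL/6, 110 days old and carried SOD1G93A, a transgene for mutant human superoxide dismutase under which motor neurons degenerate, as in amyotrophic lateral sclerosis. The 6 libraries fall into 3 SOD1G93A/PHD1+/+ and 3 SOD1G93A/PHD1-/- samples from 3 littermate pairs. PHD1 is the oxygen-sensing prolyl hydroxylase made by Egln2, and the labels give neither the deleted part of the gene nor the promoter of the transgene. Mice without the transgene were not analysed here, so the disease itself is shared by both groups.

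Immediate early genes are transcribed within minutes of a stimulus, without waiting for new protein. Calcium entry and growth factor signals activate kinases that phosphorylate CREB and the SRF cofactors already bound at these genes, and the transcripts decay quickly afterwards. In neurons they serve as a record of recent activity, and in glia and vessels they respond to growth factors, cytokines and mechanical or thermal stress, including that of tissue handling. Fos and Fosb encode AP-1 subunits that pair with Jun proteins such as Junb. Egr1 is a zinc-finger factor, Nr4a1 an orphan nuclear receptor, and Npas4 a factor induced by calcium in neurons. Arc encodes a synaptic protein that promotes AMPA receptor endocytosis, Ier2 a small nuclear protein, and Dusp1 a phosphatase that switches off MAP kinases.

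Promoter sequences were shown for 4 members because CREB binds the cyclic AMP response element, or its short form TGACG, in many genes of this kind. RefSeq promoter windows of 300 bases (GRCm38.p6, 250 before to 50 after the annotated start) matched 6 of the 9 members: Fos, Fosb, Junb, Npas4, Nr4a1 and Dusp1. Each stretch printed here runs from 250 bases before the RefSeq start to the start or to the first base of a GENCODE exon of the gene, in the direction of transcription. Capitals mark TGACG on either strand (CGTCA when it lies on the other strand), the full element TGACGTCA, which contains the short form on both strands, and TATAAA.
Fos, chr12:85473640-85473889, plus strand: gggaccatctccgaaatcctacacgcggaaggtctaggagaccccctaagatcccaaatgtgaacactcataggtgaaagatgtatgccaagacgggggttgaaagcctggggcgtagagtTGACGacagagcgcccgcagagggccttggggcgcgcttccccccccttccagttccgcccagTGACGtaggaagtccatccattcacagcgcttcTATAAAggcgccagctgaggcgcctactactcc
Junb, chr8:84978749-84978998, minus strand: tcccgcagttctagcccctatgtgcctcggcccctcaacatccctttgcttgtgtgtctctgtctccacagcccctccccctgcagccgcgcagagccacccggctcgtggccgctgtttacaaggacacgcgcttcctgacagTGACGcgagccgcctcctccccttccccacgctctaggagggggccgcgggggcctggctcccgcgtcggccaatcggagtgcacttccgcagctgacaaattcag
Nr4a1, chr15:101266596-101266845, plus strand: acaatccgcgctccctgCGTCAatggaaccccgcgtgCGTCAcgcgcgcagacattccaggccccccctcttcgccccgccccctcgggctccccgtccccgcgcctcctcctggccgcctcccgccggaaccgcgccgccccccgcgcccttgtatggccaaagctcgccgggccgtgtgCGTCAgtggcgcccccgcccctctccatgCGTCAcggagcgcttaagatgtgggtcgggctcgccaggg
Dusp1, chr17:26508520-26508722, minus strand: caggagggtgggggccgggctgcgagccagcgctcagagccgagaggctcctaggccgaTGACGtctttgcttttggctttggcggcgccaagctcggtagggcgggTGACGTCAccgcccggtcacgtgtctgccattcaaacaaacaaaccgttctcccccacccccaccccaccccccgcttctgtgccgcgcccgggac
The short form was found in the windows of all 6 matched members, and in 20.8% of all 32851 RefSeq windows of the same length. Nr4a1 held 4 copies, at 233, 213, 69 and 40 bases before its start. The full element was found in Dusp1 alone among the 6, 143 to 136 bases before its start, and in 1.79% of all windows. TATAAA lay at the start of Junb, beyond the stretch shown, and 33 bases before that of Fos, against 13.6% of all windows. The AP-1 letters TGANTCA, the SRF element called the CArG box and the EGR letters GCGTGGGCG were found in 0 of the 6, against 7.81%, 1.63% and 0.612% of all windows. Variant letters, bases outside these windows and the promoters of Egr1, Arc and Ier2 were not searched, so a count of 0 does not show that a gene lacks an element. These are matches of letters and not shown binding sites.

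In GRCm38 the genes lie at chr12:85473890-85477273 (Fos), chr7:19302696-19310051 (Fosb), chr8:84974484-84978718 (Junb), chr18:34859823-34864984 (Egr1), chr19:4984355-4990316 (Npas4), chr15:74669083-74672570 (Arc), chr15:101254269-101274795 (Nr4a1), chr8:84661331-84662852 (Ier2) and chr17:26505590-26562128 (Dusp1). The Dusp1 model is long because 1 GENCODE transcript starts far upstream of the others.

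The data hold 41896 nuclei after filtering, with 14085730 to 32544881 counted molecules (unique molecular identifiers, UMIs) per library. Replicate 1 of both groups stood apart: its median nucleus held 1363 (PHD1+/+) and 1365 (PHD1-/-) UMIs against 2290 to 2904 in the other 4 libraries, and doublets could not be marked in it. Libraries shared 0 to 86 barcodes, the 86 between the replicates 1 of the 2 groups being 1.30% of the smaller. Any other pair shared at most 14, so the replicates 1 may draw on another barcode list, which the labels do not state. Egln2, for which the counted reads may lie outside the deleted part, was at 29.6, 18.8 and 16.5 CPM (its UMIs scaled by the library's total UMIs) in PHD1+/+ and at 9.66, 9.03 and 10.1 in PHD1-/-, given here and throughout in the order of replicates 1, 2 and 3. Every PHD1-/- library was below every PHD1+/+ library, in the direction of its label.

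All 9 members were detected, and all were scarce. Their UMIs over the 6 libraries numbered 2092 for Nr4a1, 1891 for Junb, 1252 for Egr1, 1084 for Dusp1, 960 for Fos, 569 for Ier2, 553 for Npas4, 453 for Arc and 68 for Fosb, sums that are not compared between genes. Most nuclei with a member's transcript held 1 UMI of it, from 83.2% of the Egr1-positive to 97.3% of the Arc-positive nuclei. Strongly loaded nuclei were rare: 52 held 3 or more Egr1 UMIs, 49 held 3 or more of Nr4a1, 43 of Junb and 22 of Fos. The highest count of Fos in a nucleus was 9, in an excitatory neuron of PHD1-/- replicate 2. With each nucleus thinned to 1000 UMIs, which left out the nuclei below that depth, 1848 of 33767 nuclei (5.47%) held at least 1 member and 103 (0.305%) held at least 2. Unthinned, in nuclei of unequal depth, these shares were 15.01% and 2.78%. The unthinned share with at least 1 member ran from 10.4% in PHD1-/- replicate 1 to 17.7% in PHD1-/- replicate 3. At 1000 UMIs the order was another, from 4.40% in PHD1-/- replicate 2 to 8.56% in PHD1+/+ replicate 1.

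Each gene had its own order of cell classes (the plot of levels by cell class). Classes were compared within a gene, as CPM of the UMIs summed over a class in a library, and these values are a description, since the classes were rebuilt from the same libraries. The 9 members were left out of the clustering, and all markers of each of these 7 classes were detected in it. In sums over a class, fewer active nuclei and fewer transcripts per nucleus cannot be told apart.

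**Figure D1:**
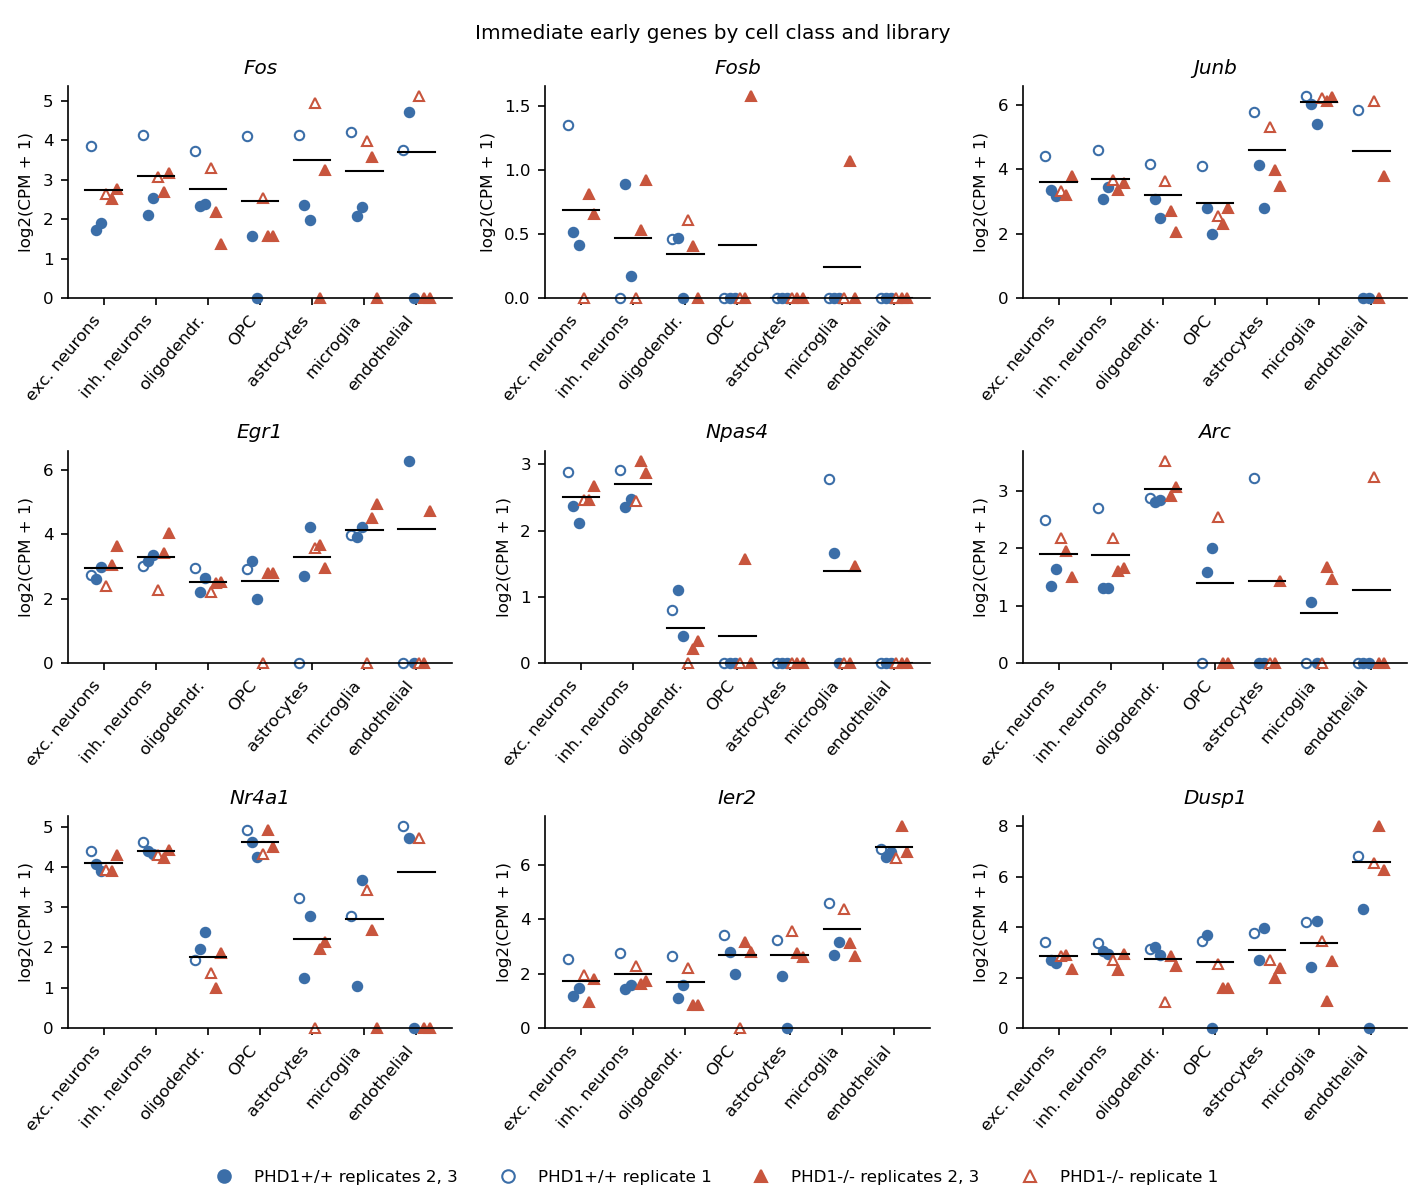
Level of each gene in 7 cell classes, as log2(CPM + 1) on the y axis, 1 point per library (open symbols: replicate 1) and a line at the mean CPM of the 6 libraries. Npas4 is highest in neurons, with 1 microglial library inside their range, Arc is highest in oligodendrocytes, Junb in microglia and Ier2 in endothelial cells, while the Fos points of all classes overlap.

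Npas4 was highest in neurons. It stood at 5.54 ± 1.32 CPM in inhibitory and 4.70 ± 1.04 in excitatory neurons (SD, n = 6 libraries), with overlapping ranges, against 0.442 ± 0.428 in oligodendrocytes. Inhibitory neurons held 45.8% and excitatory neurons 43.6% of its UMIs. In inhibitory neurons the libraries were at 6.54, 4.13 and 4.57 CPM in PHD1+/+ and 4.46, 7.28 and 6.28 in PHD1-/-. The lowest of these was above the highest oligodendrocyte library, at 1.15. Microglia came next at 1.63 ± 2.29 CPM, from 5 UMIs in all: PHD1+/+ replicate 1 reached 5.86 CPM with 2 UMIs, inside the range of neurons, and 3 libraries had 0. Astrocytes and endothelial cells held 0 Npas4 UMIs. At a depth of 1000 UMIs, 0.599% of inhibitory and 0.459% of excitatory neurons carried an Npas4 UMI, against 0.0305% of oligodendrocytes and 0 of 1292 astrocytes, which allows a share of up to 0.232%. Unthinned, the shares were 3.61%, 2.50%, 0.0807% and 0 of 1458, in nuclei of unequal depth.

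Nr4a1 was shared by neurons and oligodendrocyte precursors and was low in the oligodendrocytes that precursors give rise to. Precursors held 29.4, 23.8 and 18.02 CPM in PHD1+/+ and 19.2, 29.5 and 21.8 in PHD1-/-. Oligodendrocytes held 2.24, 2.88 and 4.23 CPM and 1.57, 0.975 and 2.64 CPM in the same order. The 2 classes did not overlap, and the mean was 9.75 times higher in precursors. Inhibitory neurons, at 20.03 ± 2.11 CPM, were above excitatory neurons, at 16.1 ± 2.70, in 6 of 6 libraries, although the ranges of the classes overlapped. Newly formed oligodendrocytes, a small class, held 8 Nr4a1 UMIs or 9.88 CPM over all libraries (exact 95% Poisson interval 4.26 to 19.5, counting error only), between both.

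The level of Arc was highest in oligodendrocytes. The oligodendrocyte libraries held 6.35, 5.95 and 6.18 CPM in PHD1+/+ and 10.4, 6.50 and 7.40 in PHD1-/-. Excitatory neurons held 4.63, 1.54 and 2.10 CPM in PHD1+/+ and 3.54, 2.85 and 1.82 in PHD1-/-. The lowest oligodendrocyte library was above the highest library of excitatory neurons and that of inhibitory neurons (5.497 CPM), and the means differed by 2.60 and 2.65 times. Of all Arc UMIs, 34.2% lay in oligodendrocytes, 28.5% in excitatory and 22.1% in inhibitory neurons, so the 2 neuron classes together held more of its molecules at a lower level. The summed level of 5 general neuron markers was 401 to 1711 CPM in oligodendrocytes against 17160 to 27860 in excitatory neurons. In microglia the same marker sum was 528 to 2148 CPM, with 4 Arc UMIs (1.16 CPM, exact 95% Poisson interval 0.315 to 2.96). The part of neuronal RNA in the oligodendrocyte level of Arc was not tested. At 1000 UMIs per nucleus an Arc UMI was found in 0.692% of oligodendrocytes, 0.208% of excitatory and 0.180% of inhibitory neurons. Unthinned, the order was the other way, 1.13%, 1.30% and 1.46%, in nuclei of unequal depth.

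Junb was highest in microglia. Its microglial level was 76.2, 64.6 and 41.4 CPM in PHD1+/+ and 73.5, 68.9 and 73.9 in PHD1-/-. The mean of 66.4 CPM was 2.85 times that of astrocytes, the next class, and 5.93 times that of excitatory neurons. Microglia were above astrocytes in 6 of 6 libraries, but the highest astrocyte library, PHD1+/+ replicate 1 at 54.4 CPM, reached into the microglial range. A Junb UMI was found in 6.18% of microglia at 1000 UMIs, a depth that 1619 of 2745 microglia reached, against 0.682% of oligodendrocytes (7.61% and 1.20% unthinned). Egr1 followed in microglia at 16.4 ± 9.92 CPM, above oligodendrocytes in 5 of 6 libraries, the exception being PHD1-/- replicate 1 with 0 UMIs.

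Vessel cells carried Ier2 and Dusp1. Ier2 in endothelial cells stood at 94.3, 76.5 and 89.0 CPM in PHD1+/+ and 76.3, 171.6 and 88.9 in PHD1-/-, 42.3 times the mean of excitatory neurons and 8.61 times that of microglia, without overlap with any other of the 7 classes. Dusp1 averaged 94.2 CPM there but ranged from 0 to 257.3, with PHD1+/+ replicate 3 at 0, and overlapped with microglia. These endothelial values rest on 38 Ier2 and 39 Dusp1 UMIs in 403 nuclei, of which PHD1-/- replicate 2 held 10, and its 2 Ier2 and 3 Dusp1 UMIs give the highest values of both genes. In replicates 2 and 3 alone the ratio of Ier2 to microglia was 16.3. Endothelial nuclei also carried 2.20% to 6.07% ribosomal-protein transcripts and 711 to 1414 CPM of a list of stress genes. Inhibitory neurons held 0.398% to 0.913% and 180 to 336 CPM. Microglia reached into the endothelial ranges, at 1.25% to 2.86% and 345 to 868 CPM. The part of these transcripts in the result was not tested. Markers of mural cells summed to 229 to 1736 CPM in the endothelial class against 9168 to 18180 for its own markers. Mural cells, a smaller class, held 11 Ier2 UMIs or 54.0 CPM (exact 95% Poisson interval 27.0 to 96.6).

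Egr1 was high in a class outside the tested ones. Fibroblasts held 58 Egr1 UMIs, 45.4 CPM over all libraries (exact 95% Poisson interval 34.5 to 58.7). By library they were at 17.2, 65.8 and 18.2 CPM in PHD1+/+ and 20.5, 10.3 and 65.6 in PHD1-/-, above inhibitory neurons in 6 of 6 libraries. The 2 high libraries, PHD1+/+ replicate 2 and PHD1-/- replicate 3, supplied 49 of the 58 UMIs.

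Fos had no class of its own. The class means ran from 4.504 CPM in oligodendrocyte precursors to 11.99 in endothelial cells, and the ranges of neighbouring classes overlapped throughout. Inhibitory neurons, at 7.63 ± 4.79 CPM, were above excitatory neurons, at 5.71 ± 4.06, in 6 of 6 libraries. Schwann cells held 30 Fos UMIs or 21.8 CPM (exact 95% Poisson interval 14.7 to 31.1). Fosb was found in excitatory neurons (31 UMIs), inhibitory neurons (22) and oligodendrocytes (6), with at most 1 in each of the other 4 classes, too few to order them. Cholinergic neurons, the class that holds motor neurons, had 108 nuclei, with 3 Fos, 9 Npas4, 2 Arc and 27 Nr4a1 UMIs. Their Fos level of 1.66 CPM (exact 95% Poisson interval 0.342 to 4.84) was not tested against other neurons.

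Among neurons the levels of the members differed between clusters. Excitatory and inhibitory neurons held 38 clusters with at least 10 nuclei in every library, and the median cluster had 6.37 CPM of Egr1, 14.1 of Nr4a1, 5.14 of Npas4, 4.26 of Fos and 1.795 of Arc. A cluster of 215 inhibitory neurons led by Pdzd2, B130024G19Rik and Chrdl1 ranked first of the 38 for Egr1 (51.6 CPM), Nr4a1 (68.5), Npas4 (17.8), Arc (12.4) and Ier2 (8.003), and second for Fos (17.8). It held 7.14% of the Egr1 and 4.48% of the Nr4a1 UMIs of both neuron classes, against 1.16% of all their UMIs, so most transcripts of these genes lay in other clusters. Dusp1 did not follow, with rank 14.

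This cluster was singled out from the sum of the same 6 libraries, and its rank was alike across them for some genes and not for others. Its Nr4a1 level was 84.3, 91.9 and 48.2 CPM in PHD1+/+ and 75.2, 50.3 and 74.1 in PHD1-/-, among the 5 highest of the 38 clusters in 6 of 6 libraries. Egr1 stood at 28.1, 64.3 and 66.2 CPM in PHD1+/+ and 9.40, 46.9 and 65.4 in PHD1-/-, and ranked first in 4 libraries. For Fos it was among the 5 highest in 3 of 6 libraries, at values from 6.02 to 30.5 CPM, and for Arc it was at 0 in PHD1+/+ replicate 2 and PHD1-/- replicate 1. With 29 to 42 nuclei per library, single molecules move these values.

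A second inhibitory cluster, of 181 nuclei led by Adamts5, Nox4 and Pdzd2, was first for Fos (18.2 CPM) and second for Nr4a1 (63.1 CPM), but had 0 Fos UMIs in PHD1+/+ replicate 2 and PHD1-/- replicate 1. An inhibitory cluster of 425 nuclei led by Rorb and Hpse2 was second for Egr1 at 28.8 CPM. Among excitatory neurons, a cluster of 651 nuclei led by C1ql3 and Maf held 60.2 CPM of Nr4a1 and the highest Dusp1 of the 38 (13.5 CPM). Another, of 424 nuclei led by D130009I18Rik and Tac1, the gene of the neuropeptide substance P, had rank 3 for Fos (12.8 CPM) and rank 2 for Junb (19.9 CPM). PHD1-/- replicate 3 supplied 28 of the 59 Junb UMIs of this Tac1 cluster, and without that library its Junb level was 13.3 CPM. By library, the cluster ranked as low as 30 of 38 for Junb and 13 of 38 for Fos. At the other end, a cluster of 228 excitatory neurons held 0 Egr1 UMIs in 824946 UMIs. These clusters were singled out after their values were seen.

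**Figure D2:**
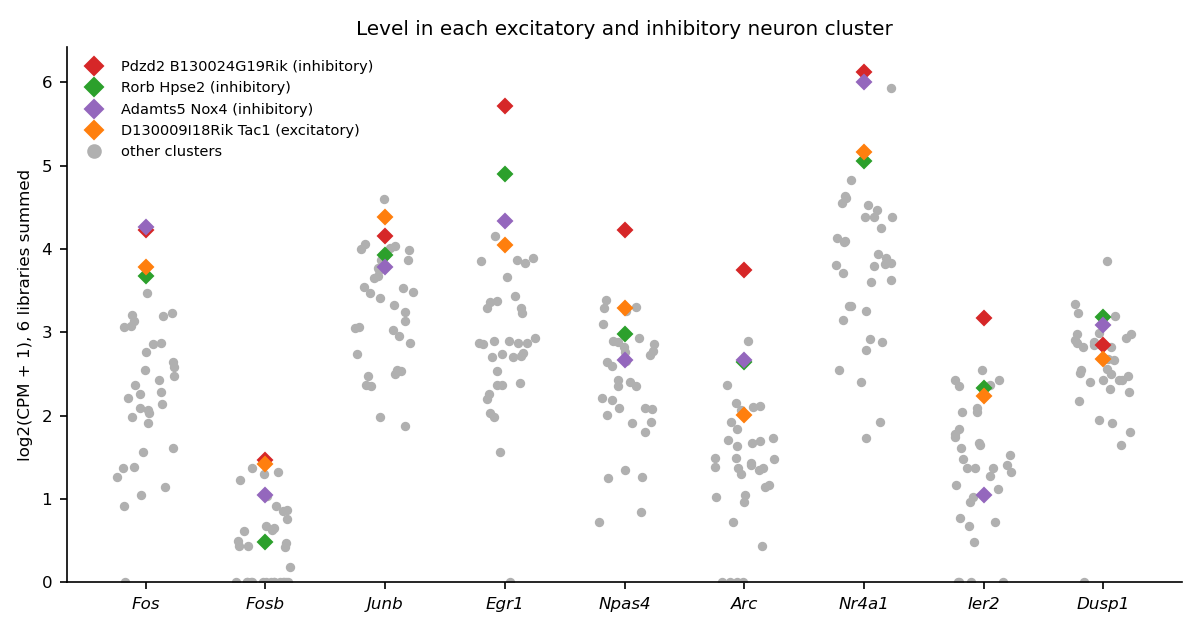
Level of each gene in each of 38 excitatory and inhibitory neuron clusters, as log2(CPM + 1) of the 6 libraries summed, with the 4 clusters of highest mean rank for Fos, Egr1, Npas4, Nr4a1 and Arc in colour. The Pdzd2 B130024G19Rik cluster is the top point for Egr1, Npas4, Arc, Nr4a1 and Ier2 (and for Fosb, with 2 UMIs) and lies among the others for Dusp1.

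A separate cluster of 293 nuclei with neuron markers but no clear transmitter type was led by Tnfrsf12a, Ddit3 and Atf3, genes known from injured neurons and the integrated stress response. It held 42.2 CPM of Egr1 (exact 95% Poisson interval 27.6 to 61.9), 26.0 of Dusp1 (14.9 to 42.2) and 19.5 of Ier2 (10.1 to 34.1), but only 1 Npas4 UMI (1.62 CPM). Egr1 there was at 7.30, 35.3 and 87.9 CPM in PHD1+/+ and at 43.9, 46.3 and 0 in PHD1-/-, so the libraries spread widely within both genotypes. PHD1+/+ replicate 3 supplied 13 of the 26 Egr1 and 6 of the 12 Ier2 UMIs, and without it the levels were 27.8 and 12.8 CPM. In PHD1+/+ replicate 3, 1 nucleus alone held 7 Egr1 UMIs, which the Poisson interval treats as independent counts. PHD1+/+ replicate 1 supplied 114 of the 293 nuclei. The median nucleus of the cluster held 735.5 to 1104 UMIs by library, against 2353 to 6742.5 in excitatory neurons. A few deeper nuclei can therefore carry these levels.

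Members were also found together in single neurons. With 14247 neurons of both classes thinned to 2000 UMIs, a Junb UMI was present in 7.88% of the 165 Fos-positive and 2.07% of the Fos-negative nuclei, higher in 5 of 6 libraries. For Egr1 these shares were 4.24% and 1.55% (5 of 6 libraries) and for Nr4a1 9.70% and 3.64% (4 of 6). Egr1-positive neurons held an Nr4a1 UMI in 9.33% of nuclei against 3.62% of the rest, higher in 6 of 6 libraries. For Npas4 and Junb the shares were 2.10% and 2.13%, from 3 nuclei with both. Unthinned, where deeper nuclei hold more of every gene, Junb was found in 9.71% of Npas4-positive and 5.42% of Npas4-negative neurons (5 of 6 libraries), and Egr1 in 17.4% of Fos-positive and 3.65% of Fos-negative ones (6 of 6). The counts behind these shares are small, 13 nuclei for Fos with Junb and 21 for Egr1 with Nr4a1, and a nucleus shares its cluster, library and RNA quality across its genes.

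Between genotypes, where the design asks what loss of PHD1 changes in the disease model, no member passed the test. In sums over all nuclei 0 of the 9 members, and 0 of all 19342 genes tested (0%), had an adjusted p under 0.05 by edgeR's quasi-likelihood test with Benjamini-Hochberg adjustment. The unadjusted p was under 0.05 for 90 genes and no member. DESeq2 made 0 calls and gave 93 such unadjusted values. Egln2 was not called either, although its CPM did not overlap between genotypes, so a missing call does not show a missing difference. The p-values measure the spread between these 6 libraries. Sums over all nuclei also carry the mix of cell classes, which differed between libraries. Endothelial nuclei made up 2.12% of PHD1+/+ replicate 1 and 1.66% of PHD1-/- replicate 1, against 0.139% to 0.785% elsewhere. The unnamed rest of the nuclei made up 13.3% and 4.93% of the same libraries, against 0.720% to 2.00% elsewhere. The part of this mix in the values over all nuclei was not tested.

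**Figure D3:**
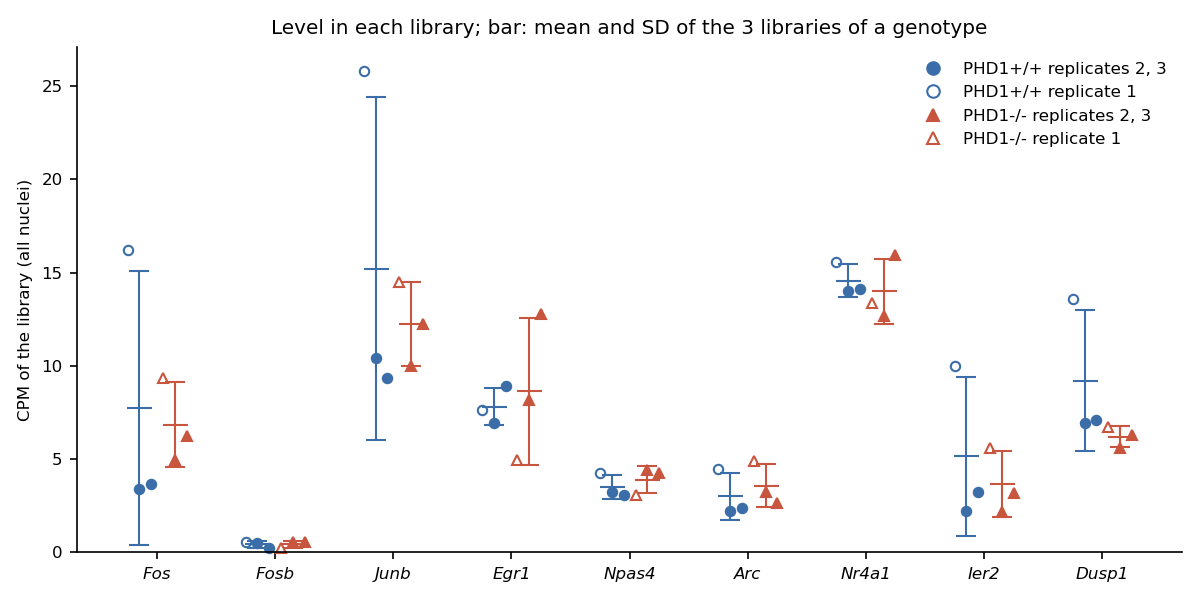
CPM of each gene over all nuclei of a library (y axis), 1 point per library with the mean and SD of the 3 libraries of a genotype. PHD1+/+ replicate 1 is the highest of all libraries for Fos, Junb, Ier2 and Dusp1, and the points of the genotypes overlap for every gene except Dusp1.

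Dusp1 was the 1 member whose groups did not overlap over all nuclei. It stood at 13.6, 6.95 and 7.08 CPM in PHD1+/+ and at 6.74, 5.59 and 6.31 in PHD1-/-. Every PHD1-/- library was below every PHD1+/+ library, as were those of 1.98% of all genes tested, and 0 members were above in every library (1.99% of genes). The log2 fold change of Dusp1 was -0.57 ± 0.31 (SE, 95% interval -1.32 to 0.18, adjusted p = 1 by edgeR). It was lower in each of the 3 same-numbered pairs, by log2 differences of -0.98, -0.24 and -0.19. Without PHD1+/+ replicate 1, the highest library, the fold change was -0.18.

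The values of Fos, Junb and Ier2 rested on 1 library. Fos was at 16.2, 3.38 and 3.67 CPM in PHD1+/+ and 9.37, 4.95 and 6.23 in PHD1-/-. Junb was at 25.8, 10.4 and 9.37 CPM and 14.5, 9.99 and 12.3 in the same order, and Ier2 at 10.02, 2.20 and 3.24 against 5.61, 2.18 and 3.17. In each case PHD1+/+ replicate 1 was the highest of the 6 libraries and PHD1-/- replicate 1 the second. The log2 fold changes were -0.19 (95% interval -1.73 to 1.36) for Fos, -0.32 (-1.31 to 0.68) for Junb and -0.51 (-2.03 to 1.00) for Ier2, each with an adjusted p of 1 by edgeR. Without PHD1+/+ replicate 1 all 3 turned positive, to 0.94, 0.30 and 0.40. Fosb was at 0.583, 0.525 and 0.216 CPM in PHD1+/+ and 0.213, 0.553 and 0.540 in PHD1-/-, a log2 fold change of 0.06 (-1.17 to 1.28).

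None of the other 4 members separated the genotypes. Npas4 was at 4.24, 3.21 and 3.07 CPM in PHD1+/+ and 3.05, 4.39 and 4.25 in PHD1-/-, with a log2 fold change of 0.16 (95% interval -0.49 to 0.81). Nr4a1 had the narrowest interval, at -0.06 (-0.48 to 0.36), with every library between 12.7 and 15.96 CPM. Egr1 was highest in PHD1-/- replicate 3 (12.8 CPM) and lowest in PHD1-/- replicate 1 (4.97 CPM), so both ends of its range lay in 1 genotype, and its fold change of 0.15 (-0.70 to 0.998) was -0.24 without PHD1-/- replicate 3. Arc, at 4.45, 2.20 and 2.38 CPM against 4.90, 3.23 and 2.63, had a fold change of 0.25 (-0.69 to 1.17), and of -0.02 without PHD1-/- replicate 1. An adjusted p of 1 does not show that the genotypes are alike, and these intervals give the changes that the data leave possible.

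Within cell classes no member passed the test either. In excitatory neurons 8 members could be tested (Fosb could not) and 0 were called, against 0 of 16108 genes (0%; 78 at an unadjusted p under 0.05, 33 by DESeq2, which called 0). With the replicate number as a block, 31 genes were called, 0 of them members. No member's genotype ranges separated in either direction there, against 2.16% of genes above and 2.14% below. The largest member value was Egr1 at 0.42 (95% interval -0.49 to 1.33), with 5.59, 5.04 and 6.98 CPM in PHD1+/+ and 4.25, 7.28 and 11.5 in PHD1-/-.

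In inhibitory neurons 0 of 8 members and 0 of 15664 genes (0%; 75 at an unadjusted p under 0.05, 52 by DESeq2, which called 0) were called, and with the replicate block 82 genes and 0 members. Dusp1 was again lower in every PHD1-/- library, at 9.42, 7.41 and 6.67 CPM against 5.42, 3.91 and 6.61, where 2.22% of genes lay below and 2.2% above. Its log2 fold change was -0.55 (95% interval -1.22 to 0.12, adjusted p = 1 by edgeR). The lowest PHD1+/+ library (6.67 CPM) and the highest PHD1-/- library (6.61 CPM) lay close together. Npas4 was at 0.30 (-0.40 to 1.01), lower in the first pair and higher in the other two.

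In oligodendrocytes 5 members were tested, Fos, Junb, Egr1, Arc and Dusp1, and 0 were called, as were 0 of 12709 genes (0%; 100 at an unadjusted p under 0.05, 51 by DESeq2, which called 0). Arc was higher in every PHD1-/- library, at 6.50 to 10.4 CPM against 5.95 to 6.35, and 2.5% of genes were. The log2 fold change of Arc was 0.38 (95% interval -0.33 to 1.09, adjusted p = 0.9999 by edgeR), and its lowest PHD1-/- library exceeded its highest PHD1+/+ library by little. Without PHD1-/- replicate 1, its highest library, the value was 0.17. Dusp1 was lower in every PHD1-/- library, as 3.15% of genes were, at 7.85, 8.25 and 6.51 CPM in PHD1+/+ against 1.04, 6.17 and 4.49 in PHD1-/-. Its log2 fold change was -0.82 (-1.93 to 0.28), and -0.49 without PHD1-/- replicate 1. Junb and Fos had lower values in each of the 3 same-numbered pairs, by log2 differences of -0.50, -0.40 and -0.46 for Junb and -0.42, -0.15 and -1.19 for Fos. Their ranges overlapped between genotypes, their adjusted p with the replicate block was 0.6768 (Junb) and 0.7286 (Fos) by edgeR, and without PHD1+/+ replicate 1 they were at 0.037 and 0.041.

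In microglia only Junb was tested, at 0.22 (95% interval -0.48 to 0.92), and at 0.010 without PHD1+/+ replicate 3, its lowest library, and at 0.40 without PHD1+/+ replicate 1. There 0 of 8452 genes were called (0%; 51 at an unadjusted p under 0.05, 16 by DESeq2, which called 0). Oligodendrocyte precursors, astrocytes and endothelial cells had 0 members above the filter on low counts, with 0 of 7113 (0%), 0 of 6820 (0%) and 0 of 1315 (0%) genes called by edgeR, 67, 52 and 5 genes at an unadjusted p under 0.05, and 0, 1 and 0 called by DESeq2. The replicate block called 1 gene in astrocytes, not a member, and 0 in the other 2.

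**Figure D4:**
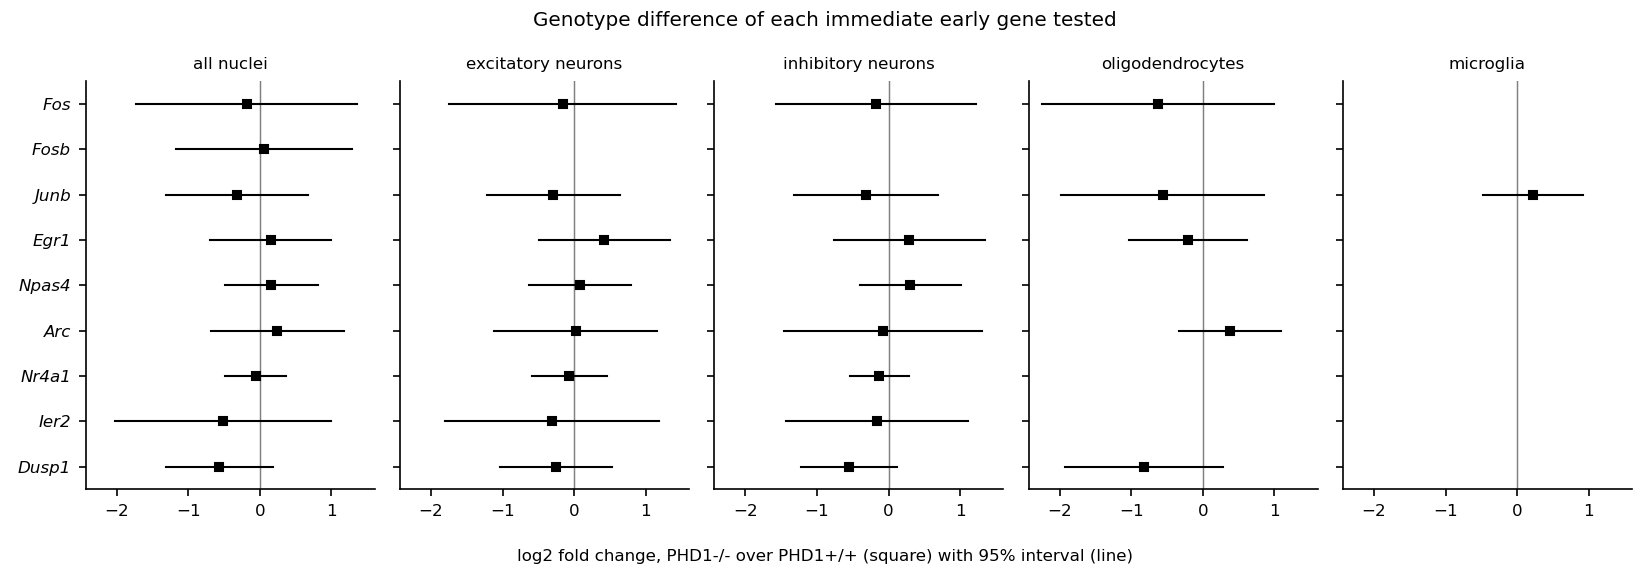
Log2 fold change of PHD1-/- over PHD1+/+ (x axis) for each gene tested in all nuclei, excitatory neurons, inhibitory neurons, oligodendrocytes and microglia, with its 95% interval. Every interval includes 0, and those of Nr4a1 are the shortest in the first 3 panels.

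Shares of nuclei with a member's UMI were compared at an equal depth of 1000 UMIs. Of 56 comparisons of gene and class, 1 reached the smallest p that 3 libraries against 3 can give, 0.10 (exact two-sided permutation test). This was Dusp1 in inhibitory neurons, whose share was 0.723% ± 0.187 in PHD1+/+ and 0.310% ± 0.100 in PHD1-/- (SD over 3 libraries), with an adjusted p of 1. Unthinned, these shares were 4.40% ± 1.25 and 3.55% ± 2.01, with an exact permutation p of 0.70. The design cannot reach 0.05 for any single share.

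RNA quality and stress genes moved with the high library. Over all nuclei the 9 members together summed to 98.1, 49.8 and 52.0 CPM in PHD1+/+ and 62.7, 51.7 and 64.1 in PHD1-/-. The 9 genes of a stress and dissociation list, among them the heat-shock genes Hsp90aa1, Hsph1 and Hspb1, summed to 573.5, 332.9 and 364.2 CPM in PHD1+/+ and 324.6, 292.3 and 247.9 in PHD1-/-. Both lists were highest in PHD1+/+ replicate 1. Ribosomal-protein transcripts made up 1.81% and 1.12% of UMIs in replicate 1 of PHD1+/+ and PHD1-/- against 0.567% to 0.638% in the other 4 libraries, and mitochondrial transcripts 0.566% and 0.329% against 0.144% to 0.213%. In excitatory neurons the members summed to 86.4 CPM in PHD1+/+ replicate 1 and 44.1 to 63.1 in the other libraries, and in inhibitory neurons to 98.2 and 54.5 to 73.3. The part of RNA quality in the members' levels was not tested.

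**Figure D5:**
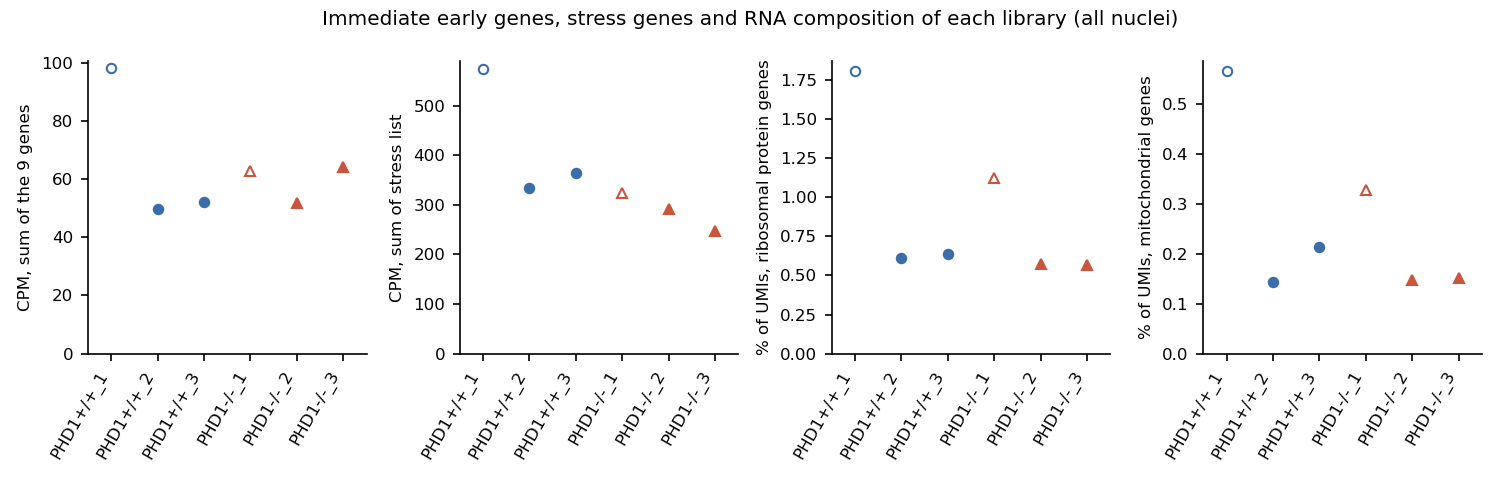
Each library over all nuclei: summed CPM of the 9 genes, summed CPM of the stress list, and the percent of UMIs from ribosomal-protein and mitochondrial genes (y axes start at 0). PHD1+/+ replicate 1 is highest in all 4 panels, and PHD1-/- replicate 1 is second for the ribosomal-protein and mitochondrial percentages only.

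Related genes did not pass the test either. Of 80 related genes that the count files hold, 79 were tested over all nuclei, 0 were called, and 20 had higher and 59 lower values in PHD1-/-. The other AP-1 subunits counted 1 higher and 7 lower value, with a median log2 fold change of -0.21 against -0.01 over all genes. Jun was at -0.38 (24.0 ± 13.6 CPM in PHD1+/+ and 18.5 ± 6.91 in PHD1-/-, SD, n = 3), Jund at -0.27 and Atf3 at -0.68, all with an adjusted p of 1 by edgeR. In replicates 2 and 3 alone 5 of the 8 AP-1 values were higher, with a median of 0.03.

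The other lists were mostly lower in value, without a call. Of 21 other rapid-response genes 4 had higher and 17 lower values (median -0.13, Homer1 -0.01, Gadd45g -0.57), and in replicates 2 and 3 alone 13 were higher. MAP kinase phosphatases counted 1 higher and 4 lower (Dusp6 0.04, Dusp14 -0.09), and the EGR and NR4A family 1 and 3 (Egr2 0.02, Nr4a2 -0.09, Nr4a3 -0.12). In replicates 2 and 3 alone 4 of the 5 phosphatases and 4 of the 4 EGR and NR4A genes had higher values. Upstream regulators, the kinases and factors that switch these genes on, were split 11 to 10 with a median of 0.00 (Mef2a 0.05, Mrtfb 0.03). Late activity-regulated genes, the secreted and synaptic products that follow, counted 1 higher and 10 lower (median -0.16, Scg2 -0.16, Vgf -0.27), and 2 of 11 were higher in replicates 2 and 3 alone.

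Of the 9 stress genes 1 had a higher and 8 a lower value, with a median of -0.44. In replicates 2 and 3 alone 1 was higher and the median was -0.35. Hsp90aa1, a chaperone, had the 1 unadjusted p under 0.05 among the 79 genes (306 ± 66.7 CPM in PHD1+/+, 211 ± 30.3 in PHD1-/-, SD, n = 3, log2 fold change -0.54, unadjusted p = 0.0459 and adjusted p = 1 by edgeR). In inhibitory neurons it was at -0.53, in excitatory neurons at -0.41 and in oligodendrocytes at -0.45, none called.

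Likeness to the members as a group was measured over all classes. Over the 42 pairs of library and class, the 5 genes of 13619 candidates whose log2(CPM + 1) was most like the mean of the 9 members were Spint2 (Pearson r = 0.78), Tpra1 (0.76), Fbxl15 (0.76), Lamtor4 (0.75) and Tmsb15b2 (0.74), across points that share libraries, depth and classes. Of the members themselves Fos came highest, ninth at 0.72, and it is part of the mean. Between members the highest value was 0.55 for Ier2 and Dusp1, followed by 0.45 for Fos and Junb, and the lowest was -0.45 for Arc and Ier2.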

How the data were processed

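The authors' deposited counts are UMIs per gene and barcode from 10x 3' libraries of nuclei, made with Cell Ranger 5.0.1 per the file headers (5.0.2 with Scanpy 1.8.1 and mm10, per the submitters' processing notes). For introns and strand, the settings of the counting are not given in the sources used here. Filters removed barcodes below 500 UMIs or 300 genes and those with 5% or more mitochondrial UMIs. Doublets marked by Scrublet were removed from replicates 2 and 3 (1.79% to 3.36%). The caller marked 0 in both replicates 1, where it did not work, so doublets remain there.

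Nuclei were clustered with scanpy 1.11.5 and leidenalg 0.10.2 (30 principal components, 15 neighbours, resolution 1) and named from marker lists, with thresholds set after the leading genes were seen. Rebuilt classes may differ from the authors' own. UMIs summed per class and library were tested with edgeR 4.0.16 (quasi-likelihood, TMM, filterByExpr, Benjamini-Hochberg over all genes, threshold 0.05), with DESeq2 1.42.0 as an alternative. The steps were checked on simulated data. For edgeR this covered excitatory neurons and microglia only, with large changes in well-counted genes and no shift of replicate 1. It does not cover smaller changes or scarce genes. Depth per library ran from 14120298 to 33794389 deposited UMIs, and Poisson intervals (95%) and limits from 0 counts cover counting error only.

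The edgeR and DESeq2 tests used no replicate block, except where a block is named. For that block and for the same-numbered pairs, replicate numbers were taken to pair samples, since the labels speak of littermate pairs. Same-numbered libraries deviated together in every class (correlations of 0.132 and more). Deviations were taken from the mean of a genotype's 3 libraries, so a shift shared by the replicates 1 alone also makes the other pairs correlate. This check cannot tell litter pairs from technical likeness, since the replicates 1 were also alike in depth and shared the most barcodes. Correlations between differently numbered libraries are not given here, so the pairing remains an assumption. Members and lists were chosen with earlier results of these data known. Named are the 9 members, genes of the lists with the highest mean CPM, and the 5 genes most like the members' mean. Neuron clusters, fibroblasts and other classes outside the 7 were singled out after their values were seen. Alternatives were another normalization, no filter, deeper nuclei, a replicate block, replicates 2 and 3 only and each library left out.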

Additional observations from a re-analysis of the deposited data

How the results depend on the processing

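No member was called under any alternative run, and the smallest adjusted p of a member was 0.4744 (edgeR or DESeq2). Of the 31 fold changes 8 kept their sign under every alternative and 22 changed it when at least 1 library was left out. Without PHD1+/+ replicate 1, 15 of the 31 changed sign. The causes were not tested. Leaving out each library in turn gave log2 fold changes over all nuclei of -0.53 to 0.94 (Fos), -0.26 to 0.32 (Fosb), -0.56 to 0.30 (Junb), -0.24 to 0.42 (Egr1), -0.022 to 0.63 (Arc) and -0.93 to 0.40 (Ier2). In excitatory neurons they were -0.57 to 1.04 (Fos), -0.53 to 0.21 (Junb), -0.0025 to 0.70 (Egr1), -0.082 to 0.35 (Npas4), -0.28 to 0.54 (Arc), -0.24 to 0.079 (Nr4a1), -0.65 to 0.38 (Ier2) and -0.40 to 0.064 (Dusp1). In inhibitory neurons they were -0.56 to 0.77 (Fos), -0.61 to 0.28 (Junb), -0.22 to 0.62 (Egr1), -0.40 to 0.69 (Arc) and -0.48 to 0.48 (Ier2), and in oligodendrocytes -1.32 to 0.041 (Fos), -1.10 to 0.037 (Junb) and -0.43 to 0.032 (Egr1).

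With the replicate number as a block, Fos was at 0.15 in all nuclei, 0.24 in excitatory and 0.16 in inhibitory neurons and Arc at 0.13 in inhibitory neurons. The block called 31 genes in excitatory neurons, 82 in inhibitory neurons and 1 in astrocytes, and it changed no call of a member. These counts rest on the rebuilt classes and moved with the weighting of the neighbour graph, a setting not tabulated here. With replicates 2 and 3 only, Fos was at 0.69, 1.07 and 0.75 and Junb at 0.19, 0.28 and 0.23 in all nuclei, excitatory and inhibitory neurons, Nr4a1 at 0.047 and 0.15 in the first 2 of these, Ier2 at 0.17 and 0.27 in excitatory and inhibitory neurons, Dusp1 at 0.025 in excitatory neurons, Arc at 0.50 in inhibitory neurons and Egr1 at 0.12 in oligodendrocytes. That setting called 1 gene in excitatory neurons and 1 in microglia, neither a member. With nuclei of at least 1000 UMIs, Fosb was at -0.051 in all nuclei and Arc at -0.013 in excitatory neurons, and endothelial cells could not be fitted. DESeq2 called 1 gene in astrocytes, and no filter on low counts 4 in astrocytes and 3 in microglia. The share of nuclei with 2 or more members averaged 0.309% over libraries at 1000 UMIs, 1.03% at 2000 UMIs and 2.85% unthinned, settings added after the data were seen.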
